A study of Mus musculus with 6 samples.

Results

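Integrins are adhesion receptors built from 1 alpha and 1 beta subunit, and 10 of their subunit genes were followed here: Itgam, Itgal and Itgb2, which form the leukocyte integrins, Itga1, Itga4, Itga6, Itga9 and Itgb1, which form receptors for matrix proteins and adhesion molecules, and Itgav and Itgb5, which form receptors for vitronectin and related ligands. The genes were taken by symbol from the 26789 genes of a table of normalized counts, and 10 of 10 passed the filter of a mean of at least 10 normalized counts that 18007 genes passed. The libraries were made from P15 mice, from microglia, the tissue macrophages of brain, of the rostral nucleus of the solitary tract (NST), the first brainstem station of the taste pathway. Controls came from dams on a control diet, standard chow by the study's methods, which name C57Bl/6 for the controls of another experiment and no strain for these libraries. E3–E12 diet mice received a low-sodium diet through their dams from E3 to E12 of embryonic development and standard chow from then on. Each of the 3 control and 3 E3–E12 diet libraries was made from the pooled tissue of the littermates of 1 litter, so a library stands for a litter. The study used both males and females throughout, and the sexes in each pool are not given. By the study's methods the cells were selected with magnetic beads against CD11b, the protein that Itgam encodes, whereas the deposited description names laser microdissection. The isolation is therefore uncertain, and, if beads were used, Itgam is the gene whose product the cells were chosen by.

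An integrin binds its ligand outside the cell and joins the actin skeleton inside it through talin and kindlin, which switch the receptor to its binding state. Alpha M beta 2 is complement receptor 3, through which microglia bind and engulf material tagged with fragments of complement C3, including synapses in developing brain. Alpha V integrins bind vitronectin and bring latent TGF-beta to its active form, and integrins that hold beta 1 anchor cells to laminin, collagen and fibronectin.

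The normalized counts of a library summed to between 9407141 and 17204618, and the number of reads behind a value is unknown. The 12 microglia markers were above 0 in every library, with a summed level of 94243 to 511496 normalized counts in controls and 97014 to 294175 in E3–E12 diet mice. Control replicate 2 stood apart, with the highest marker sum and 10640 genes listed at 0, against 3459 to 7135 in the other 5 libraries. Genes that every cell uses are among them (Cox5a, a subunit of the respiratory chain chosen here after its values were seen, was listed at 0 there and at 33.5 to 111 elsewhere), so a 0 in that library is given only as a listed value. In such bulk libraries, fewer cells of a type and less RNA per cell cannot be told apart.

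Itgam was the most abundant integrin transcript. To compare genes, each value was divided by the length of the gene's exons in kilobases (kb), which gave a mean over the 6 libraries of 3992 normalized counts per kb for Itgam, 1878 for Itgb5, 801 for Itgb2, 457 for Itgb1, 400.1 for Itga6, 279 for Itga9, 209 for Itgav, 177 for Itga4, 40.5 for Itga1 and 25.5 for Itgal. Itgam was above Itgb5 and Itgb5 above Itgb2 in 6 of 6 libraries. The places of Itgb1 over Itga6 and of Itgav over Itga4 held in 4 of 6 libraries each, so these neighbours did not differ beyond their spread. Itgb2 was above Itgb1, and Itga1 above Itgal, in 5 of 6 libraries, and the remaining neighbours kept their order in 6 of 6.

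The 10 genes held between 86.0% and 96.2% of the summed per-kb level of 28 genes of the integrin family in a library. Those 28 include the beta-like genes Itgb2l and Itgbl1. Itgam took 47.5%, 36.2% and 51.8% of it in controls and 34.8%, 42.0% and 54.2% in E3–E12 diet mice (replicates 1 to 3). Itgb5 took 35.1% in control replicate 2 and 13.3% to 20.2% in the other 5 libraries. The share of Itgb1 was 3.53%, 4.46% and 2.35% in controls and 8.66%, 6.31% and 6.48% in E3–E12 diet mice. The groups did not overlap for 1 of the 10 shares, that of Itgb1 (1 of 28 over the family), where 5.90% of all genes had normalized counts whose groups did not overlap. The share was looked at after the values were seen and is given without a test.

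**Figure D1:**
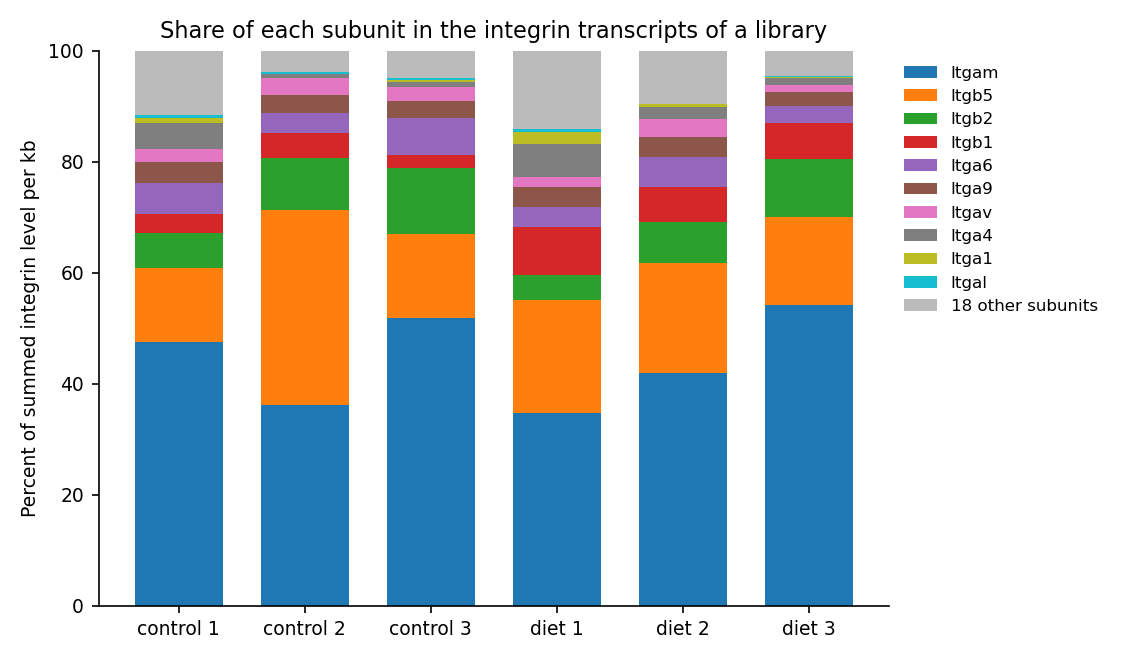
Share of each integrin subunit in the summed integrin level of a library (percent, y axis), with each gene's normalized count divided by its exon length in kb. Each bar is 1 library, and Itgam and Itgb5 together fill most of every bar. The 18 genes labelled as other subunits include the beta-like genes Itgb2l and Itgbl1. Itgb5 takes 35.1% in control replicate 2 and 13.3% to 20.2% in the others.

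For orientation, the 100 bases before the start site are shown for the most abundant subunit and for the 2 subunits that the study lists among genes higher in E3–E12 diet mice, from RefSeq on GRCm38.p6, each 5′ to 3′ on the gene's strand. They lie at chr7:128062540-128062639 (plus strand) for Itgam, chr8:128685554-128685653 (plus strand) for Itgb1 and chr13:115101965-115102064 (minus strand) for Itga1. Capitals mark GAGGAA or its reverse complement TTCCTC, the core letters bound by PU.1, a transcription factor of myeloid cells.
Itgam: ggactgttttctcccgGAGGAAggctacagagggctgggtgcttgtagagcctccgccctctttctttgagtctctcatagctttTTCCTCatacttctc
Itgb1: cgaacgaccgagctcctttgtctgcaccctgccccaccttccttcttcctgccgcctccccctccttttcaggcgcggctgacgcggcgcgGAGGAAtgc
Itga1: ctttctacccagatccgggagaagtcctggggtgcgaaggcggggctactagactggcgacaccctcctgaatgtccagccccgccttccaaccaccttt
These letters occurred 2 times in the Itgam window, 1 time in that of Itgb1 and 0 times in that of Itga1, and 9.82% of 32851 promoters held them in a window of this length. A match describes the letters and not a bound site.

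Itgam, the alpha subunit of complement receptor 3 (chr7:128062640-128118491, plus strand, GRCm38), had 12271, 23771 and 23544 normalized counts in controls and 8307, 17963 and 34466 in E3–E12 diet mice, in the order of replicates 1, 2 and 3, as for every gene that follows. The lowest and the highest library were both E3–E12 diet libraries, and the control values lay between them. The log2 fold change, here always the E3–E12 diet mean minus the control mean of log2(normalized count + 1) ± its standard error, was -0.14 ± 0.73. Of the 50-base windows of its exons, 66.3% also occur in Gm49368, an overlapping gene model, and 0% in genes with a row in the table.

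Itgb2, the beta subunit shared by the leukocyte integrins (chr10:77530252-77565708, plus strand), had 983, 3742 and 3272 normalized counts in controls and 676, 1953 and 4034 in E3–E12 diet mice. As for Itgam, replicate 1 was the lowest library of each group and E3–E12 diet replicate 3 the highest of all. Its log2 fold change was -0.39 ± 0.91. Itgal, the alpha subunit of LFA-1 (chr7:127296260-127335138, plus strand), which lymphocytes and neutrophils use to bind ICAM-1, had 159, 371 and 176 normalized counts in controls and 181, 33.3 and 86.2 in E3–E12 diet mice. E3–E12 diet replicate 1 lay between the control values and the other 2 E3–E12 diet libraries below them. The spread of Itgal over the libraries, 11.1-fold, was the widest among the 9 subunits without a 0, and its log2 fold change was -1.42 ± 0.80. Without E3–E12 diet replicate 1 it was -2.003 (limma, unadjusted p = 0.0410, adjusted p = 1).

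**Figure D2:**
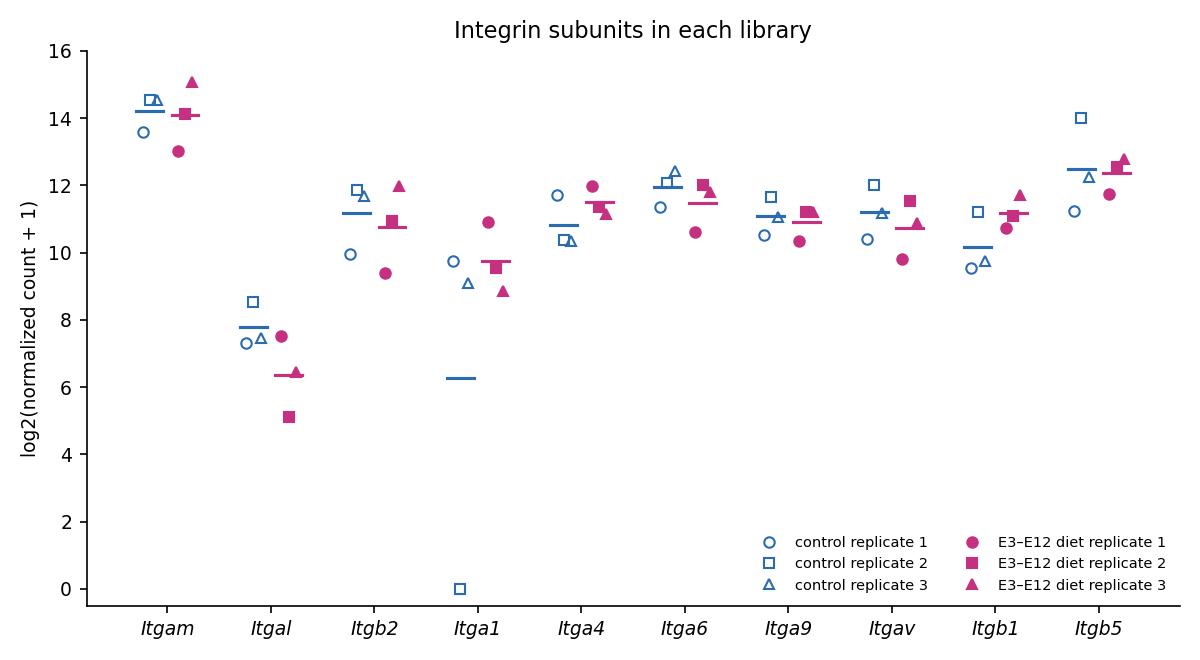
log2(normalized count + 1) (y axis) of the 10 subunits (x axis) in each of the 3 control libraries (open symbols) and 3 E3–E12 diet libraries (filled symbols), with the group mean as a bar. The groups overlap for every subunit, and Itga1 is listed at 0 in control replicate 2.

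Itgb1, the beta subunit of the laminin, collagen and fibronectin receptors (chr8:128685654-128733200, plus strand), had 739, 2376 and 866 normalized counts in controls and 1681, 2193 and 3343 in E3–E12 diet mice. Control replicate 2 lay within the E3–E12 diet range and the other 2 controls below it, with group means of 1327 ± 910.5 and 2406 ± 851 (SD, n = 3 libraries each). The log2 fold change was 1.01 ± 0.69 (limma, unadjusted p = 0.193). Without control replicate 2 it was 1.53 (limma, unadjusted p = 0.0341, adjusted p = 1).

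Itga1, the alpha subunit of a collagen and laminin receptor (chr13:114953096-115101964, minus strand), had 859, 0 and 547 normalized counts in controls and 1909.6, 738 and 463 in E3–E12 diet mice. Its log2 fold change of 3.48 (standard error 2.54) rested on the value listed at 0 and was 0.34 without control replicate 2. Of its 50-base windows, 3.27% also occur in other annotated genes. Itgb1 and Itga1 are both in the study's list of genes higher in E3–E12 diet mice, which was drawn from these libraries, so their direction here is not independent evidence of it.

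Itga4, the alpha subunit of VLA-4 (chr2:79255426-79333123, plus strand), a receptor for VCAM-1 and fibronectin, had 3318, 1336 and 1299 normalized counts in controls and 4015, 2616 and 2274 in E3–E12 diet mice. It was highest in replicate 1 of each group, the libraries where Itgam and Itgb2 were lowest. Its log2 fold change was 0.68 ± 0.65. Itga6, the alpha subunit of a laminin receptor (chr2:71745616-71858416, plus strand), had 2603, 4329 and 5508 normalized counts in controls and 1549, 4105 and 3569 in E3–E12 diet mice. Its lowest library of each group was again replicate 1, the groups overlapped, and its log2 fold change was -0.48 ± 0.66. Itga9, which pairs with beta 1 to bind tenascin-C and VCAM-1 (chr9:118606690-118901003, plus strand), had 1465, 3237 and 2135 normalized counts in controls and 1285, 2365 and 2373 in E3–E12 diet mice. It had the narrowest spread of the 10 genes, 2.52-fold over the 6 libraries, and a log2 fold change of -0.16 ± 0.62.

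Itgav, the alpha subunit of the vitronectin receptors (chr2:83724397-83806916, plus strand), had 1342, 4155 and 2293 normalized counts in controls and 904, 2933 and 1870.2 in E3–E12 diet mice. In both groups replicate 1 was lowest and replicate 2 highest. Its log2 fold change was -0.46 ± 0.74. Itgb5, its partner in a receptor that takes part in the uptake of dying cells (chr16:33829665-33949338, plus strand), had 2422, 16259 and 4894 normalized counts in controls and 3422, 5945 and 7084 in E3–E12 diet mice. Control replicate 2 was above every other library, and the group means were 7858 ± 7379.5 and 5484 ± 1874 (SD, n = 3 libraries each). The log2 fold change was -0.14 ± 0.84, and 0.61 without control replicate 2.

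The diets were compared for all 18007 genes by two-sided limma tests, adjusted by Benjamini-Hochberg, at the threshold of 0.1 that the study used. Of the 10 subunits, 0 passed, each with an adjusted p of 0.999, where 0.00% of the genes tested passed. The study tested with DESeq2 instead, and its list of higher genes at this threshold holds Itgb1 and Itga1. The count of 0 therefore belongs to limma on log2 values and is not what the study's own test gave. At an unadjusted p under 0.05, limma called 0 of the 10 subunits, where it called 1.82% of all genes. The groups overlapped for 10 of 10 subunits, where 5.90% of all genes had groups that did not overlap. Itgb1, Itga1 and Itga4 were higher and the other 7 subunits lower in the mean of E3–E12 diet mice, and 6 of 10 were higher after quantile normalization, after centring each library on the microglia markers and without control replicate 2, and 8 of 10 when E3–E12 diet replicate 1 was left out. Over the subunits the median log2 fold change was -0.15, against 0.087 for all genes, and their median standard error was 0.73, so a change of that size in a single subunit was not detectable in these libraries. Exact permutation p-values, two-sided, were between 0.3 and 1 for the 10 subunits, and 3 libraries against 3 cannot go below 0.1.

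**Figure D3:**
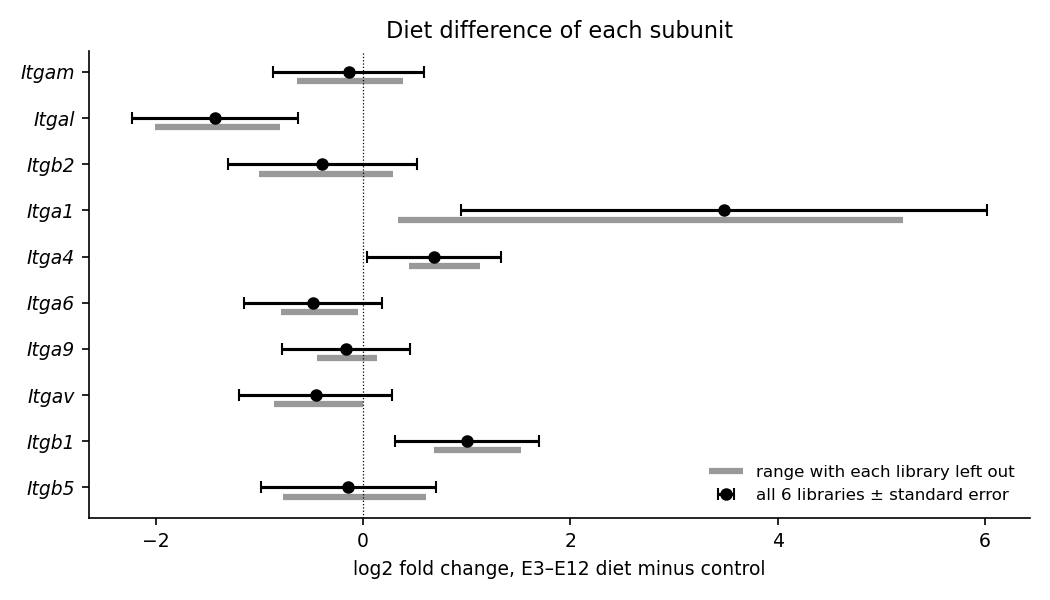
log2 fold change (x axis, E3–E12 diet minus control) of each subunit with its standard error from limma (black, 6 libraries), and the range of the value when each library is left out in turn (grey). The grey range crosses 0 for Itgam, Itgb2, Itga9, Itgav and Itgb5 and is widest for Itga1, from 0.34 to 5.21.

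Because a receptor needs both subunits, each alpha subunit was also compared with its beta partner within a library. This ratio does not depend on a scale factor shared by all genes of a library. Any adjustment made gene by gene would remain in it, and whether one was made is unknown. For 8 known pairs, the diets were compared by an exact permutation test on the log2 ratio, with Benjamini-Hochberg adjustment over the pairs. Itgav relative to Itgb1 was 1.82, 1.75 and 2.65 in controls and 0.538, 1.34 and 0.559 in E3–E12 diet mice. Itga9 relative to Itgb1 was 1.98, 1.36 and 2.47 in controls and 0.765, 1.08 and 0.710 in E3–E12 diet mice. In both ratios all 3 E3–E12 diet libraries lay below all 3 controls, by a log2 difference of -1.46 for Itgav and -1.17 for Itga9. Each had an exact permutation p of 0.1 and an adjusted p of 0.4 (n = 3 libraries each). An exact p of 0.1 is the smallest that this design allows, so no adjusted p under 0.1 was possible for any pair and the test could not make a call. These pairs and that of Itga6 share Itgb1 as the divisor and are not separate evidence. Itgb1 is also on the study's list of higher genes, which was drawn from these libraries. How often ratios of other gene pairs fail to overlap was not determined.

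Itga6 relative to Itgb1 was 3.52, 1.82 and 6.36 in controls and 0.922, 1.87 and 1.07 in E3–E12 diet mice, with overlap through control replicate 2 (exact permutation p = 0.2, adjusted p = 0.533). Itgam relative to Itgb2 had the narrowest range of the 8 ratios and lay between 6.35 and 12.5 in the 6 libraries, with its 2 highest values, 12.5 and 12.3, in replicate 1 of each group. The diets differed in it by a log2 difference of 0.25 (exact permutation p = 0.6), which was 0.060 without control replicate 2 and 0.55 without control replicate 1. The other 4 pairs, Itgal with Itgb2, Itga1 and Itga4 with Itgb1, and Itgav with Itgb5, had overlapping groups and exact permutation p-values from 0.5 to 0.9.

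**Figure D4:**
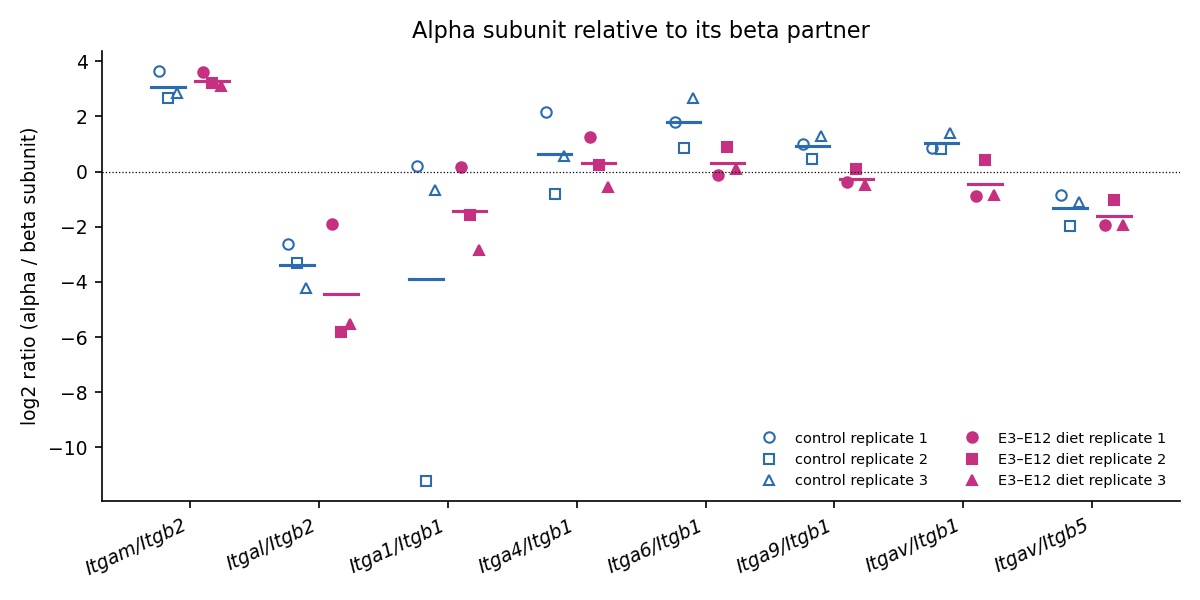
log2 ratio of an alpha subunit to its beta partner (y axis) for 8 pairs, from log2(normalized count + 1), in the 3 control libraries (open symbols) and 3 E3–E12 diet libraries (filled symbols), with the group mean as a bar. Itga9 and Itgav relative to Itgb1 are lower in all 3 E3–E12 diet libraries than in all 3 controls, and the ratio of Itga1 in control replicate 2 comes from a value listed at 0.

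Marker sums varied between libraries beside several subunits. The 12 microglia markers were lowest in replicate 1 of each group, with sums of 94243 and 97014 normalized counts against 231509 to 511496 in the other libraries, and 7 of the 10 subunits, Itgam, Itgb2, Itga6, Itga9, Itgav, Itgb1 and Itgb5, were lowest in the same libraries of their groups. Between diets, 12 of 12 microglia markers were lower in the mean of E3–E12 diet mice (median log2 fold change -0.28), the direction of 7 of the 10 subunits. Endothelial markers were higher for 7 of 12 (median 1.004), mural and fibroblast markers for 9 of 12 (median 0.59) and astrocyte markers for 7 of 8 (median 0.89). Neuron and oligodendrocyte lineage markers were higher for 6 of 10 each, lymphocyte markers for 3 of the 4 tested, and 54.4% of all genes were higher. Other lists went the opposite way. Choroid plexus markers were lower for 6 of 7 (median -0.98), neutrophil and monocyte markers for 6 of the 7 tested (median -0.39) and erythroid markers for 4 of the 4 tested (median -1.11). Itgb1, Itga1 and Itga4 were also higher in the mean of E3–E12 diet mice. Among controls, Itgb1 was highest in replicate 2 (2376 normalized counts). In that library the microglia sum was highest and the endothelial, mural and fibroblast, and astrocyte sums were lowest. The microglia, endothelial, mural and fibroblast, and astrocyte lists had 0 genes at an unadjusted limma p under 0.05. Of the 8 border macrophage markers, 6 were lower in the mean of E3–E12 diet mice. Limma gave 1 of these 8 an unadjusted p under 0.05 (12.5%, against 1.82% of all genes), and it was lower. The 12 endothelial markers summed to 5647 to 18013 normalized counts in controls and 10337 to 16754 in E3–E12 diet mice, with the lowest sum and Ly6c1 at 0 in control replicate 2, where Itga1 was listed at 0. The 12 mural and fibroblast markers summed to 2595 in that library and 7513 to 19913 elsewhere. The 9 measured neutrophil and monocyte markers summed to 3624 in control replicate 2 and 528 to 857 elsewhere. Itgal was highest in control replicate 2, as were 7 of these 9 markers. The 9 measured lymphocyte markers summed to 2082 in control replicate 2 and 295 to 736 elsewhere. However, 6 of these 9 were listed at 0 in control replicate 2 and 1 was highest there, so that sum does not describe the list. Border macrophage markers summed to 64316 in control replicate 2 and 8648 to 19236 elsewhere, and Itgb5 was highest in control replicate 2 too. The microglia markers also had their highest sum in that library, with 8 of the 12 highest there. The part of these cells in the subunits' values was not tested.

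**Figure D5:**
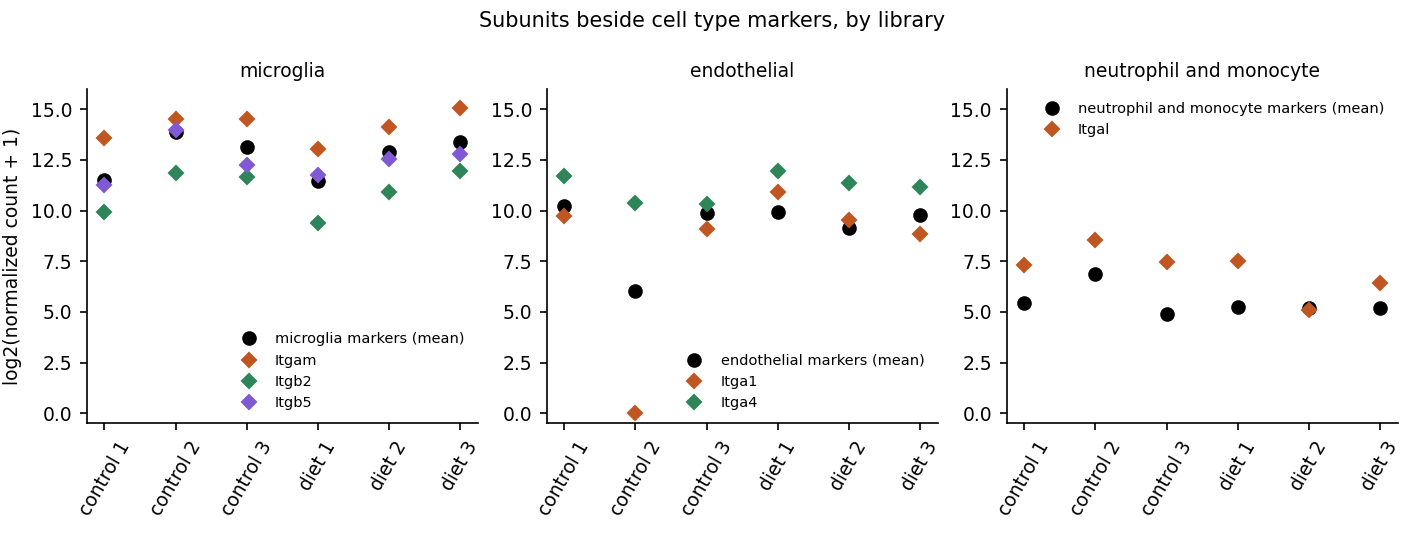
log2(normalized count + 1) (y axis) in each library (x axis) for the mean of the microglia, endothelial or neutrophil and monocyte markers (black circles) and for subunits set beside them (coloured diamonds). Itgam, Itgb2 and the microglia markers are lowest in replicate 1 of each group, and Itga1 and the endothelial markers are lowest in control replicate 2.

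Of the other 18 genes of the integrin family, 17 passed the filter, 12 of them higher and 5 lower in the mean of E3–E12 diet mice. Their median log2 fold change was 0.33, and 0 had an unadjusted p under 0.05. Itgbl1, which is beta-like and not itself a subunit, is counted among the 17 and the 12. It had 330 normalized counts in E3–E12 diet replicate 1 and 0 to 24.0 elsewhere. Control replicate 2 was the lowest library for 9 of the 17 and listed 5 at 0. Itga5, the alpha subunit of the fibronectin receptor, had 1152, 932 and 470.4 normalized counts in controls and 1317, 1071 and 1673 in E3–E12 diet mice, a log2 fold change of 0.74 ± 0.61. Itgb3, the other main partner of alpha V, had 384, 957 and 713 normalized counts in controls and 296, 639 and 477 in E3–E12 diet mice, a log2 fold change of -0.51 ± 0.65. Both had overlapping groups. Itga3, Itgae, Itgb4, Itgb7 and Itgb8 had log2 fold changes between -0.33 and 2.66, each with overlapping groups.

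Among 45 genes that activate integrins or tie them to actin, 19 were higher and 26 lower in the mean, and limma gave 1 an unadjusted p under 0.05 (2.22%, against 1.82% of all genes). This was Skap2, an adaptor in the inside-out activation of leukocyte integrins, with 56.6, 144 and 30.9 normalized counts in controls and 10.2, 0 and 0 in E3–E12 diet mice (limma, unadjusted p = 0.0044, adjusted p = 0.999). The study lists Skap2, from these libraries, among genes lower in E3–E12 diet mice, so its direction here is not independent evidence. The parvins, which link integrins to actin together with ILK, had all 3 E3–E12 diet libraries above all 3 controls. Parva had 408, 255 and 363 normalized counts in controls and 696, 521 and 536 in E3–E12 diet mice, and Parvb had 1591, 1355 and 1214 against 2041, 2013 and 2040.0. Neither had an unadjusted limma p under 0.05 (log2 fold change 0.79 with a standard error of 0.55, and 0.56 with a standard error of 0.52). Skap2, Parva and Parvb were the 3 of the 45 genes whose groups did not overlap (6.67%, against 5.90% of all genes). The other named genes of the list, Tns1, Rhoa and Crkl, had overlapping groups, and Tns1, which encodes tensin, ranged from 1.997 normalized counts in control replicate 2 to 2485 in E3–E12 diet replicate 3.

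A further 8 genes were grouped around the inhibition of integrins, and not all of them hold integrins inactive. Of these 8, 2 were higher and 6 lower in the mean, with 0 at an unadjusted p under 0.05 and a median log2 fold change of -0.47. Krit1, which binds the beta 1 inhibitor ICAP-1, had 143, 151 and 278 normalized counts in controls and 132, 112 and 36.7 in E3–E12 diet mice, and was the 1 of the 8 whose groups did not overlap (12.5%, against 5.90% of all genes; log2 fold change -1.14, standard error 0.72). Itgb1bp1, which encodes ICAP-1, had 65.3, 119.6 and 216 against 51.5, 21.0 and 96.6, with overlap (log2 fold change -1.32, standard error 0.80). Kank1, Kank2 and Dok1 had overlapping groups. The study lists Kank2, from these libraries, among genes higher in E3–E12 diet mice, and it had 292, 11.96 and 554 normalized counts in controls and 329, 261 and 958 in E3–E12 diet mice (log2 fold change 1.77, standard error 1.47).

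Of 40 ligand genes, 35 were tested, 26 higher and 9 lower in the mean, with a median log2 fold change of 0.54 and 0 at an unadjusted p under 0.05. Control replicate 2 was the lowest library for 22 of the 35, and 7 were listed at 0 there. Icam1, the ligand of alpha L beta 2 and alpha M beta 2, had 2166, 1094 and 1879 normalized counts in controls and 2227, 3478 and 3922 in E3–E12 diet mice. It was the 1 ligand whose groups did not overlap (2.86%, against 5.90% of all genes), with a log2 fold change of 0.92 and a standard error of 0.60. C3, the source of the fragment that complement receptor 3 binds, had 299, 344 and 178 normalized counts in controls and 223, 258 and 145 in E3–E12 diet mice (log2 fold change -0.38, standard error 0.59). Vtn, which encodes vitronectin, had 801, 69.5 and 279.9 against 686, 624 and 865, and 1 control library lay within the E3–E12 diet range. Vwf, Col3a1 and Thbs1 also had overlapping groups, with log2 fold changes of 2.48, -1.79 and -0.53, and Vwf is in the study's list of genes higher in E3–E12 diet mice as well.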

How the data were processed

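RNA-seq was carried out by the authors on 6 microglial libraries from P15 mice, 3 per group, with paired-end reads (75 bp per the labels, a shorter length in the methods). Per the labels' processing notes, the tools were FastQC, STAR, featureCounts and DESeq2 on GRCm38, with no versions given. The deposited values, treated as a normalized signal per gene, are counts scaled by the authors; the table's name mentions surrogate variables, and how they entered is not given in the sources used here. Whole reads could not be recovered, so the depth is unknown, no count test was run, and no counting interval is given.

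Of 26789 Ensembl identifiers, 26507 matched a symbol. log2(normalized count + 1) was compared between diets for 18007 genes (6-library mean no lower than 10) with limma 3.58.1 in R 4.3.3 (two-sided, Benjamini-Hochberg over all genes, threshold 0.1). Alpha to beta ratios were compared with exact permutation tests in scipy 1.17.1. The fit was tested on simulated data. The alternatives were the pseudocount, the filter, scaling, the replicate number as a block, a mean-variance trend and each library left out; centring on the microglia markers was added after the data were seen. Replicates are litters by the study's methods. Exon lengths and 50-base windows came from GENCODE M21 and promoters from RefSeq, which held no entry for Itgal, Itga6 and Itgb2; that of Itga9 lies at another start site and was not used.

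The subunits and the lists of integrin, ligand, adaptor and marker genes were chosen with earlier results of these data known. Named genes were the 10 subunits, other integrin subunits whose mean reached 100 normalized counts, and, of each related list, genes with an unadjusted p under 0.05 and otherwise the 3 higher and 3 lower genes with the smallest p. Of the marker lists, astrocyte markers summed to 2168 to 10006 normalized counts, neuron markers to 997 to 2522, oligodendrocyte lineage markers to 4749 to 34571, choroid plexus markers to 52.4 to 40558 and erythroid markers to 2.31 to 219.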

Additional observations from a re-analysis of the deposited data

How the results depend on the processing

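The log2 fold changes of Itga1 (0.34 to 5.21), Itga4 (0.44 to 1.13), Itga6 (-0.79 to -0.049), Itgal (-2.003 to -0.80) and Itgb1 (0.69 to 1.53) kept their sign under 15 alternatives. Those of 5 subunits did not. After quantile normalization Itgam was at 0.0027, Itga9 at 0.019 and Itgb5 at 0.083, and after centring on the microglia markers they were at 0.12, 0.0999 and 0.12. Leaving out 1 library at a time, the ranges were -0.64 to 0.39 for Itgam, -1.002 to 0.29 for Itgb2, -0.44 to 0.13 for Itga9, -0.86 to 0.0022 for Itgav and -0.77 to 0.61 for Itgb5, and the log2 ratio difference ranged from -1.06 to 0.44 for Itga4 over Itgb1 and from -1.19 to 4.53 for Itga1 over Itgb1. The other ratio differences kept their sign, from 0.060 to 0.55 for Itgam over Itgb2, -2.29 to -0.33 for Itgal over Itgb2, -1.95 to -1.05 for Itga6, -1.40 to -0.97 for Itga9 and -1.89 to -1.23 for Itgav over Itgb1, and -0.65 to -0.089 for Itgav over Itgb5. The cause was not tested. Centring moved the median log2 fold change of all genes from 0.087 to 0.35, and equal totals moved it to 0.20.

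The number of the 10 subunits past an adjusted p of 0.1 was 0 under 15 alternatives. Of all genes, 3 passed with a pseudocount of 0.1 and 1 with a mean of at least 50. At an unadjusted p under 0.05, leaving out 1 library gave 0 to 1 of the 10 subunits (Itgb1 without control replicate 2, Itgal without E3–E12 diet replicate 1), 0 to 1 of the integrin family, 1 to 2 of the activators and adaptors and 0 to 1 of the ligands. A mean of at least 50 left 0 activators and adaptors.

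Same-numbered libraries correlated at 0.035 to 0.26 in their deviations from the group means. Each E3–E12 diet library correlated best with the control of its own number, though for replicate 2 only at 0.035, against 0.016 for control replicate 3. Control replicate 2 correlated best with E3–E12 diet replicate 3, at 0.087. These values do not settle whether the numbers pair the libraries, and the main fit treated the libraries as unpaired. With the replicate number as a block, 468 genes had an unadjusted p under 0.05, 0 subunits and 1 ligand among them, and 0 genes passed the adjusted threshold.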
